A study of Mus musculus with 24 samples.

Results

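The genes described here encode leukemia inhibitory factor (Lif), 5 receptor chains that signal through or together with gp130 (Lifr, Il6st, Osmr, Il6ra and Il11ra1) and 3 Janus kinases (Jak1, Jak2 and Tyk2). They were chosen by name, because the kinases serve both LIF and interferon γ (IFNγ) signaling, and not by their values. All 9 symbols matched 1 identifier each among the 37315 genes of the normalized count table, and all 9 are described in 24 RNA-seq libraries, 2 from each of 12 populations. Every population came from the PaX system, a single hybrid M. musculus/M. castaneus female embryonic stem cell (ESC) line. It carries a GFP reporter inserted into Hprt of its M. musculus X (X-GFP), a Nanog promoter reporter (P-RFP) and a doxycycline-inducible cassette of c-Myc, Klf4, Oct4 and Sox2. The 12 populations were the ESCs, grown in serum with 1000 U/ml LIF, neural precursor cells (NPCs) differentiated from them with EGF and bFGF, and cells sorted on days 2, 5 and 7 of reprogramming. Reprogramming was done on irradiated male mouse embryonic fibroblast feeders with doxycycline, ascorbic acid and 1000 U/ml LIF, in both arms. The treated arm also received 10 ng/ml IFNγ from day 0 to 5, so that day 7 cells had been without it since day 5. At day 2 the cells were sorted as negative for the CFSE dye that marked the feeders, at day 5 as SSEA1+, and at day 7 as SSEA1+ X-GFP–negative, X-GFP–medium or X-GFP–high. The methods call the 2 replicates of a population independent, and the labels do not say whether they were separate cultures, so that the tests measure the spread between these libraries.

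LIF binds a complex of its receptor, LIFR, with gp130, the product of Il6st, and the JAKs bound to these chains phosphorylate STAT3, which maintains self-renewal of mouse ESCs. Oncostatin M, IL-6 and IL-11 use gp130 with OSMR or LIFR, with IL6RA and with IL11RA1. The IFNγ receptor signals through JAK1 and JAK2, whereas TYK2 serves type I interferon receptors and some cytokines of the gp130 family.

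Promoter windows from RefSeq (GRCm38.p6) were found for all 9 genes, 11 windows in all, and those of Lifr and Osmr are shown because these genes had the largest differences with IFNγ, in opposite directions. Each sequence covers the 250 bases before a start site, 5′ to 3′ on the strand of the gene, and capitals mark CG dinucleotides. The first Lifr window is chr15:7129322-7129571 (+), the second is chr15:7140292-7140541 (+) and that of Osmr is chr15:6874314-6874563 (−).
Lifr first start: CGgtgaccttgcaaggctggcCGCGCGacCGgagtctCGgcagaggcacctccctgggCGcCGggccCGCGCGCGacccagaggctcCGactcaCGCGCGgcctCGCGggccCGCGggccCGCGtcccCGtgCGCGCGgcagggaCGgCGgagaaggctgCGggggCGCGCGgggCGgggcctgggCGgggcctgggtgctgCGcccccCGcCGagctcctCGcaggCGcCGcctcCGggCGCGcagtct
Lifr second start: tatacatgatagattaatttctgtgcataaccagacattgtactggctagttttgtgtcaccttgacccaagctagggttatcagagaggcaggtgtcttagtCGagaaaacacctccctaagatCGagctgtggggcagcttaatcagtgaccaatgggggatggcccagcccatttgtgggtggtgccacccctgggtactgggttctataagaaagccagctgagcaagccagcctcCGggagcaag
Osmr: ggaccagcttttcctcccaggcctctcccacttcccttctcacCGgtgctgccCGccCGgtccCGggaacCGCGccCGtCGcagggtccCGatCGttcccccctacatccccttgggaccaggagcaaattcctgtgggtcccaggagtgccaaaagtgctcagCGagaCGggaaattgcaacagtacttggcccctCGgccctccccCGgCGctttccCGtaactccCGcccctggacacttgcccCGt
The first Lifr window held 43 CG dinucleotides with a GC content of 82.4%, the second held 3 with 50.8%, and that of Osmr held 18 with 66.0%. The median of 32851 such windows was 6 CG dinucleotides and 52.4% GC. Both Lifr windows lay inside the GENCODE vM21 span of the gene, which begins upstream at chr15:7090614, and no window covered that start. First and second thus refer to the RefSeq starts only. Counts per gene do not tell the Lifr starts apart. The letters TTCNNNGAA, the core of a STAT site, occurred on neither strand of any of the 11 windows when extended to 50 bases past the start, and 8.3% of all windows of those 300 bases held them. The core of an interferon-stimulated response element, 2 GAAA runs with 2 bases between them, was likewise in none of the 11 and in 3.44% of all windows. A match to one motif may overlap a match to the other.

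On GRCm38/mm10 with GENCODE vM21, Lifr (ENSMUSG00000054263) spans chr15:7090614-7197489 on the plus strand, and Osmr (ENSMUSG00000022146) lies next to it at chr15:6813577-6874969 on the minus strand, 215644 bp away. Il6st (ENSMUSG00000021756) is at chr13:112464070-112510086, Lif (ENSMUSG00000034394) at chr11:4257557-4272514 and Il6ra (ENSMUSG00000027947) at chr3:89864059-89913196. Jak1 (ENSMUSG00000028530) is at chr4:101152367-101265282, Jak2 (ENSMUSG00000024789) at chr19:29251828-29313080 and Tyk2 (ENSMUSG00000032175) at chr9:21104068-21131243. Il11ra1 (ENSMUSG00000073889, chr4:41699989-41769474) overlaps Galt on the same strand and has near-identical copies in the mouse genome, so that its counts are uncertain.

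Reads on genes numbered 24746109 to 37056508 per library. The labels of the end points fitted their markers: the summed normalized counts of 5 ESC markers were 112448 to 119435 in ESCs and 58.0 to 93.4 in NPCs, and those of 5 NPC markers were 42556 to 44217 in NPCs and 796 to 864 in ESCs. The 4 Y-linked marker genes, which the female line lacks, summed to 218 to 253 in day 2 control and 125 to 223 in day 2 IFNγ libraries, against at most 1.95 in ESCs and NPCs and at most 12.6 from day 5 on. The feeders were male and the line is female. In bulk RNA, fewer cells of a type and less RNA per cell cannot be told apart.

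**Figure D1:**
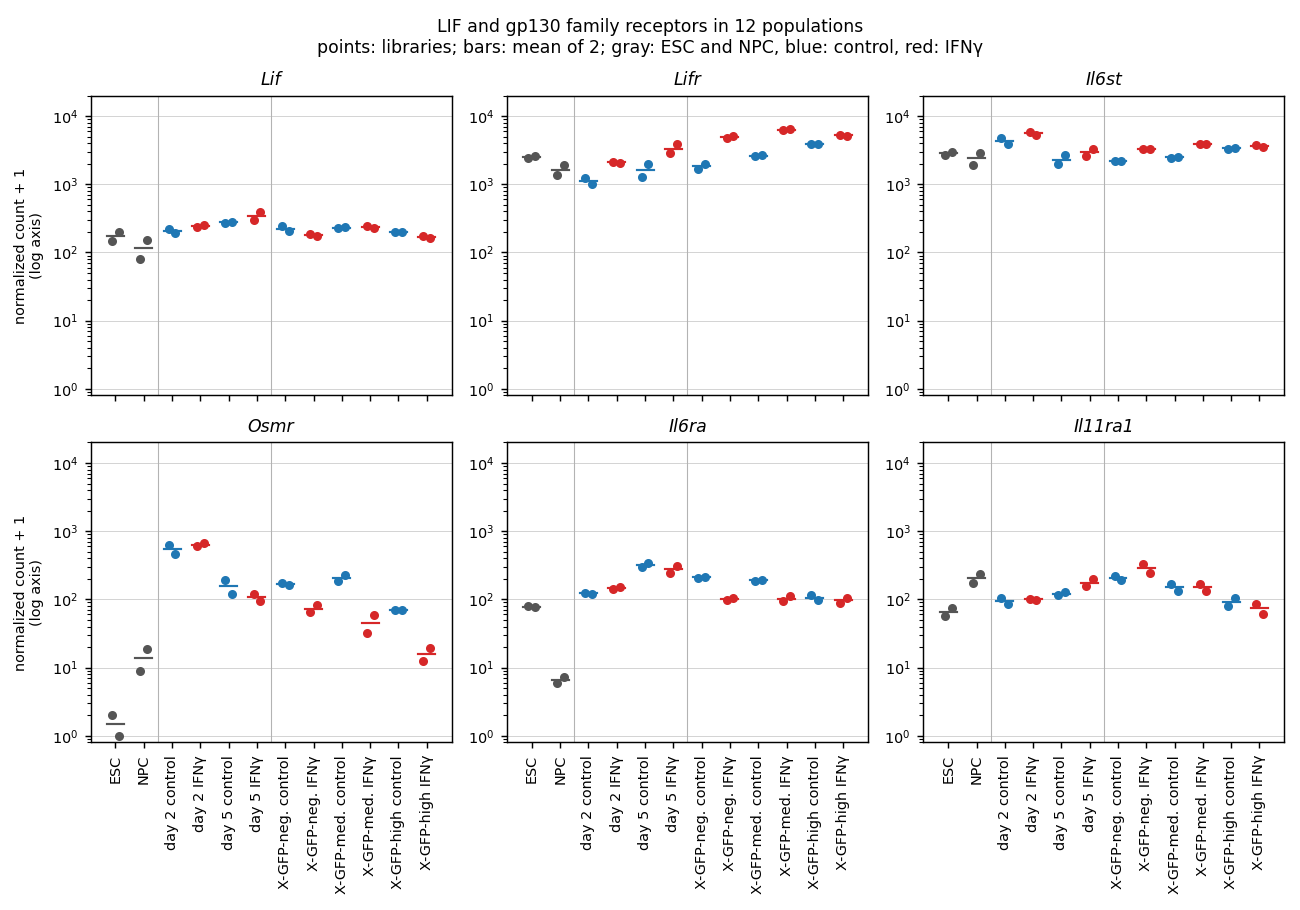
Normalized counts of Lif and 5 receptor genes, plus 1 and on a log axis, in each of 24 libraries (points) of 12 populations, with the mean of 2 libraries as a bar. Gray marks ESCs and NPCs, blue control and red IFNγ-treated cells. Lifr is highest in the IFNγ-treated day 7 cells, and Osmr runs from 0 and 0.983 in ESCs to 605 and 668 at day 2 with IFNγ.

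Lif, the ligand, had a 2.99-fold range of population means. Its normalized counts were 148 and 201 in ESCs, 78.8 and 151 in NPCs, 222 and 191 in control cells at day 2 and 271 and 278 at day 5. The highest mean, 344 ± 63.0 (SD, n = 2), was that of IFNγ-treated cells at day 5, at 299 and 388. Neighbors in the order of its 12 levels overlapped in 7 of 11 cases. Lif did not pass the test in any of the 5 comparisons of IFNγ-treated with control cells.

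Lifr ranged over 5.69-fold. Its normalized counts were lowest in control cells at day 2, at 1219 and 1007, and highest in IFNγ-treated X-GFP–medium cells, at 6280 and 6381. ESCs, at 2411 and 2576, stood seventh in the order of means, below all 3 IFNγ-treated day 7 populations and the X-GFP–high controls, and no library of these overlapped with them. In 5 of 11 neighboring pairs the libraries overlapped.

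Il6st, the signal-transducing chain shared by all these receptors, varied only 2.57-fold. The lowest normalized counts were 2172 and 2172 in X-GFP–negative control cells, and the highest, at day 2 with IFNγ, were 5905 and 5241. ESCs had 2733 and 2969 and NPCs 1933 and 2858, which overlap.

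Osmr, which pairs with gp130 to bind oncostatin M, had the widest range. ESCs had 1 and 0 reads, no more than the floor of 3 reads per library that was set for detection, and NPCs had normalized counts of 7.78 and 17.6. Control cells at day 2 had 630 and 457. The day 2 mean with IFNγ, 636 ± 44.6 (SD, n = 2), was at least 219-fold above the ESC level taken at the floor.

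Il6ra, the IL-6-binding chain, was lowest in NPCs, at 4.86 and 6.15, and highest in control cells at day 5, at 300 and 345, a 58.6-fold range of means. ESCs lay between, at 78.6 and 76.1. Il11ra1 was highest in IFNγ-treated X-GFP–negative cells, at 324 and 246, and lowest in ESCs, at 56.0 and 73.3, and 8 of its 11 neighboring pairs overlapped.

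**Figure D2:**
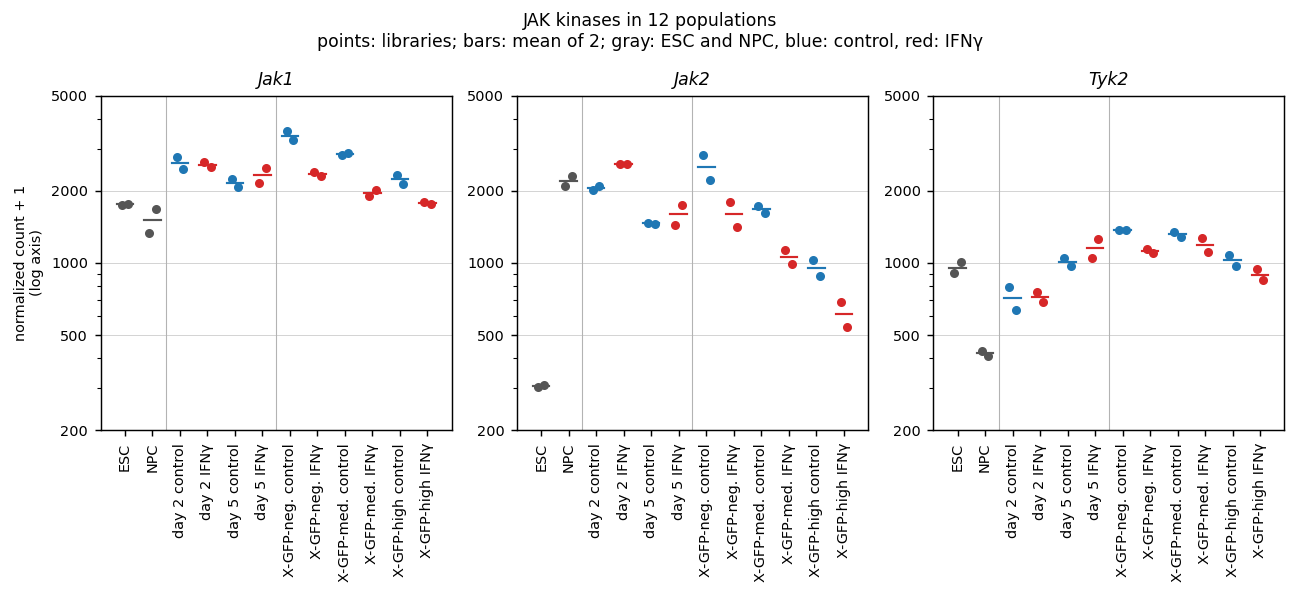
Normalized counts of 3 Janus kinases, plus 1 and on a log axis, in each of 24 libraries (points) of 12 populations, with the mean of 2 libraries as a bar. Gray marks ESCs and NPCs, blue control and red IFNγ-treated cells. Jak2 is lowest in ESCs, at 302 and 307, and all 3 day 7 fractions have lower Jak1 and Jak2 with IFNγ.

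The kinases differed in their ranges. Jak1 varied 2.26-fold, from 1331 and 1684 normalized counts in NPCs to 3543 and 3263 in X-GFP–negative control cells. Jak2 varied 8.52-fold, from 302 and 307 in ESCs to 2594 and 2594 at day 2 with IFNγ. Tyk2 varied 3.29-fold, from 429 and 407 in NPCs to 1377 and 1372 in X-GFP–negative control cells. NPCs were thus low in Jak1 and Tyk2 but had 2104 and 2301 normalized counts of Jak2, several times the ESC level.

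Cells without IFNγ were compared in 5 steps from NPCs to ESCs, and ESCs were set against NPCs directly. The populations also differed in sorting and culture. Day 2 cells were CFSE-negative, day 5 cells were SSEA1+, and X-GFP–negative and X-GFP–high cells were fractions of the same day. Time cannot be told apart from sorting and culture in these steps. These comparisons share libraries. Between NPCs and control cells at day 2, 6 of the 9 genes were higher and 2 lower at an adjusted p under 0.1 (limma), where 69.2% of all 15738 genes tested were called, 31.6% higher and 37.6% lower. All 9 genes had their NPC and day 2 libraries apart, as had 83.9% of all genes. Osmr was 42.9-fold higher (log2 difference 5.40, SE 0.40, adjusted p = 0.000166) and Il6ra 22.1-fold higher (4.24, SE 0.29, adjusted p = 0.000127). Il6st (1.80-fold, adjusted p = 0.00927), Jak1 (1.73-fold, adjusted p = 0.0027) and Tyk2 (1.71-fold, adjusted p = 0.00421) were also higher. Lif was higher (log2 difference 0.91, adjusted p = 0.0499), and Lifr (−0.55, adjusted p = 0.0347) and Il11ra1 (−1.09, adjusted p = 0.00747) were lower. Jak2 was 2104 and 2301 in NPCs and 2015 and 2099 at day 2, and was not called. The summed fibroblast markers were 28282 to 40780 in NPCs and 40693 to 60482 at day 2. NPCs were grown on gelatin and had a Y-linked sum of at most 1.95, so that this list does not mark feeders alone. The part of these markers and that of the feeder RNA in the values of the 9 genes were not tested.

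Several of these calls rested on 1 library. Without day 2 control replicate 1 the calls of Il6st, Lifr and Lif were lost, and a smaller share of all genes was called. Without day 2 control replicate 2 those of Lifr and Lif were lost, again with a smaller share of all genes called. The difference in Lif was 0.44 without NPC replicate 1 (adjusted p = 0.107) and 1.37 without NPC replicate 2, and that in Lifr was −0.31 without NPC replicate 2.

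From day 2 to day 5 in control cells, 4 genes were higher and 4 lower, with 70.6% of 15729 genes called, 34.9% higher and 35.6% lower. All 9 genes had libraries apart between the groups, as had 84.2% of all genes. Il6ra went from 124 and 119 to 300 and 345 normalized counts (log2 difference 1.40, SE 0.16, adjusted p = 0.000249), and Tyk2 from 795 and 635 to 1053 and 969 (0.51, SE 0.12, adjusted p = 0.00974). Osmr went from 630 and 457 to 191 and 118 (−1.83, SE 0.26, adjusted p = 0.000654). Il6st was lower by −0.92 and Jak2 by −0.49 on the log2 scale. Smaller differences were seen in Lif (0.41, adjusted p = 0.0462), Lifr (0.52, adjusted p = 0.0438) and Jak1 (−0.28, adjusted p = 0.0225). These 3 calls were lost without day 5 control replicate 2, where the Lifr difference was 0.23 and a smaller share of all genes was called. Calls were also lost without day 2 control replicate 2 (Lif and Lifr), day 2 control replicate 1 (Jak1) and day 5 control replicate 1 (Lif). The last had a Lifr difference of 0.82. Rescaling each library to the same total moved the median of all genes from 0.00 to −0.13, and Lif was then not called (adjusted p = 0.13), nor was it by DESeq2 (0.134). Lifr was not called with no filter on low values (0.12). The summed fibroblast markers were 1697 to 2543 at day 5 and their part in the lower values was not tested.

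From day 5 to day 7 X-GFP–negative control cells, 63.7% of 15225 genes were called (34.2% higher and 29.5% lower), and of the 9 genes 4 were higher and 2 lower. All 3 kinases were higher: Jak1 went from 2240 and 2069 to 3543 and 3263 (log2 difference 0.66, SE 0.08, adjusted p = 0.000287), Jak2 by 0.77 (SE 0.11, adjusted p = 0.000708) and Tyk2 by 0.44 (SE 0.08, adjusted p = 0.00278). Il11ra1 was 1.68-fold higher (adjusted p = 0.00512) and Il6ra was lower (−0.62, adjusted p = 0.00536). Lif was also lower (−0.31, adjusted p = 0.0929), a call lost without day 5 control replicate 2 (adjusted p = 0.14), X-GFP–negative control replicate 1 (0.117) or replicate 2 (0.443, with a difference of −0.19), and also with no filter (0.131), all 24 libraries in 1 fit (0.232) and DESeq2 (0.181). Lifr, Il6st and Osmr overlapped between the groups, and the other 6 genes did not, as 80.3% of all genes did not.

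Between X-GFP–negative and X-GFP–high control cells, 8 of the 9 genes were called, 2 higher and 6 lower in X-GFP–high cells, where 74% of 15574 genes were called, 34.7% higher and 39.3% lower. Libraries were apart in all 9 genes and in 85.7% of all genes. Lifr was 1684 and 2012 in X-GFP–negative and 3849 and 3955 in X-GFP–high cells (log2 difference 1.08, SE 0.08, adjusted p = 5.56e-07), and Il6st was 1.55-fold higher (0.63, SE 0.06, adjusted p = 4.14e-06). All 3 kinases were lower, Jak2 the most, from 2813 and 2226 to 1025 and 885 (−1.39, SE 0.11, adjusted p = 6.88e-07). Jak1 differed by −0.60 and Tyk2 by −0.43 (adjusted p = 1.46e-05 and 0.000468). Osmr (−1.25), Il6ra (−0.99) and Il11ra1 (−1.16) were lower with adjusted p of at most 0.000108. Rescaling moved the median of all genes from −0.04 to 0.07 and changed none of these 8 calls.

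ESCs had none of the 9 genes higher than X-GFP–high control cells and 7 lower, with 75.8% of 15427 genes called, 37.8% higher and 37.9% lower. Libraries were apart in 7 of the 9 genes and in 85.1% of all genes. Jak2 was 302 and 307 in ESCs (log2 difference −1.64, SE 0.10, adjusted p = 3.77e-09), and Lifr was 2411 and 2576 (−0.65, SE 0.06, adjusted p = 2.03e-07). Osmr was at least 23.9-fold lower than its X-GFP–high levels of 69.1 and 69.4, taking the ESCs at the floor. Jak1 (−0.35) and Il6st (−0.24) were lower with adjusted p of 0.000213 and 0.00261, and Il6st was not called with all 24 libraries in 1 fit (0.179). The calls of Il6ra (−0.44, adjusted p = 0.0489) and Il11ra1 (−0.48, adjusted p = 0.065) were lost without 1 library: Il6ra without ESC replicate 2 (0.111) or X-GFP–high control replicate 1 (0.261), and Il11ra1 without ESC replicate 1 (0.306, with a difference of −0.29) or X-GFP–high control replicate 2 (0.387, −0.29). DESeq2 called neither (0.183 and 0.2), and Il11ra1 was not called with no filter (0.144).

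Directly against NPCs, ESCs had 3 genes higher and 2 lower among the 8 tested, where 85.6% of 15911 genes were called, 42.2% higher and 43.4% lower. Libraries were apart in 7 of the 9 genes and in 91.9% of all genes. Il6ra (log2 difference 3.60, SE 0.27, adjusted p = 5.9e-05), Tyk2 (1.19, SE 0.10, adjusted p = 8.12e-05) and Lifr (0.62, SE 0.15, adjusted p = 0.0102) were higher. Jak2 was 7.23-fold lower (−2.85, SE 0.08, adjusted p = 3.41e-06) and Il11ra1 3.15-fold lower (−1.64, SE 0.24, adjusted p = 0.00112). Osmr was not tested because its mean over the 4 libraries was not above 10. The Lifr call was lost without either ESC library (adjusted p = 0.119 and 0.155), and the difference was 0.39 without NPC replicate 1. Lif, Il6st and Jak1, whose values in NPC replicate 2 were above those in replicate 1, were called as well without NPC replicate 2. The share of all genes called was slightly smaller in that fit. Rescaling moved the median of all genes from −0.03 to −0.16 and changed the direction of none of the 5 called differences.

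**Figure D3:**
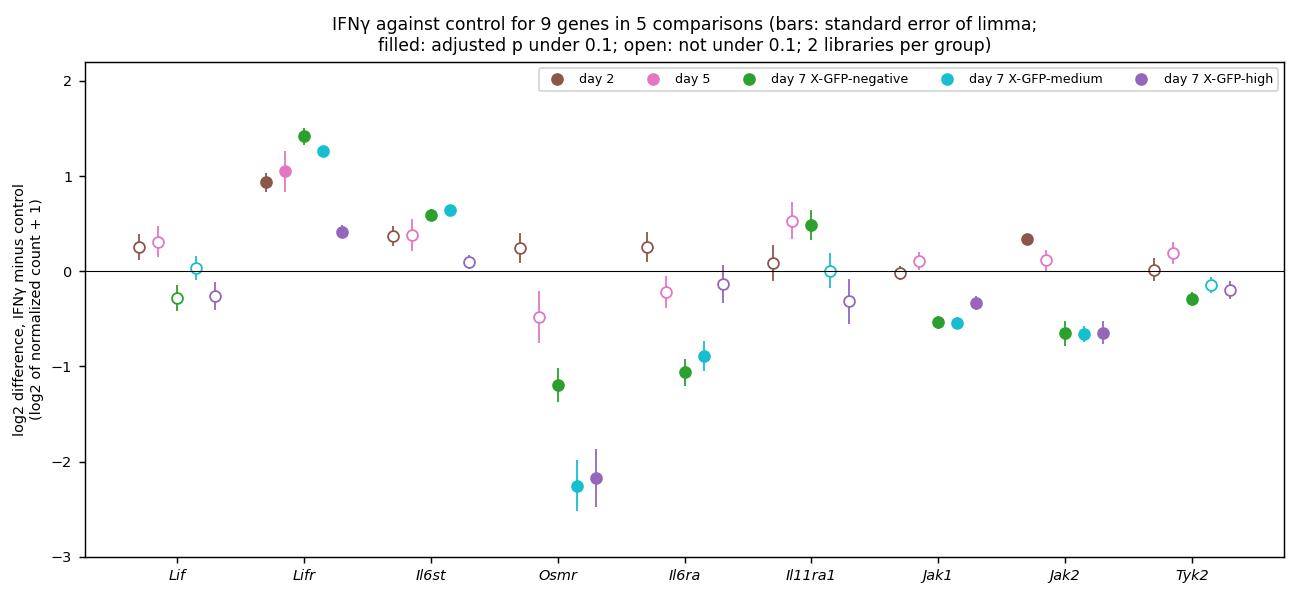
Log2 difference between IFNγ-treated and control cells (on log2 of the normalized count plus 1) for 9 genes in 5 comparisons of 2 with 2 libraries. Bars are the standard error of limma, filled points passed an adjusted p of 0.1 and open points did not. Lifr is above 0 in all 5 comparisons, and Osmr, Jak1 and Jak2 are below 0 in the 3 day 7 fractions.

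At day 2 of IFNγ treatment the main differences were in a receptor and a kinase. Lifr was 1.90-fold higher and Jak2 1.26-fold higher, and none of the 9 genes was lower. Lifr had 1219 and 1007 normalized counts in control cells and 2150 and 2085 with IFNγ (log2 difference 0.93, SE 0.10, adjusted p = 0.00358). Jak2 had 2015 and 2099 in control cells and 2594 and 2594 with IFNγ (0.33, SE 0.06, adjusted p = 0.0243). Both groups were apart in both genes. Of all 15697 genes tested, 8.49% were called, 5.03% higher and 3.45% lower. Between the groups, libraries were apart in 5 of the 9 genes and in 51.2% of all genes. The Jak2 call was lost without day 2 control replicate 1 (adjusted p = 0.105) or day 2 IFNγ replicate 2 (0.114), and with all 24 libraries in 1 fit (0.173).

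Il6st had 4738 and 3910 normalized counts in day 2 controls against 5905 and 5241 with IFNγ, which do not overlap, and just missed the threshold (log2 difference 0.37, SE 0.10, adjusted p = 0.108). It was called by DESeq2 on the recovered reads (adjusted p = 0.0189). It was also called with the replicate number as a block in the fit, where 31.8% of all genes were called. Jak1, at 2766 and 2462 against 2637 and 2512, overlapped between the groups, as did Tyk2, Osmr and Il11ra1. The summed fibroblast markers were 24859 to 30305 with IFNγ against 40693 to 60482 in control cells, with 3 of 7 called lower and none higher. The 5 macrophage markers summed to 193 to 309 with IFNγ against 224 to 256. Of the 5 NPC markers, Pax6 (0.64, adjusted p = 0.0626) and Slc1a3 (1.24, adjusted p = 0.00122) were called higher and none lower, and their sums were 16230 to 17731 with IFNγ against 12454 to 15590, libraries apart. The part of these lists in the differences at day 2 was not tested.

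At day 5 Lifr was the only one of the 9 genes called. It had 1296 and 1959 normalized counts in control cells and 2833 and 3852 with IFNγ (2.05-fold, log2 difference 1.05, SE 0.21, adjusted p = 0.0932), with 2.18% of 15133 genes called, 1.65% higher and 0.535% lower. The treated libraries were apart from controls in 3 of the 9 genes and in 53.3% of all genes. The Lifr groups did not overlap, but its call was lost without day 5 control replicate 1 (difference 0.75) or day 5 IFNγ replicate 2 (0.83). In these fits a smaller share of all genes was called, and without day 5 IFNγ replicate 1 a larger share was. With no filter on low values the adjusted p of Lifr was 0.189. Jak2 was 1475 and 1456 without and 1439 and 1753 with IFNγ, which overlap. Il6st was 1958 and 2647 without and 2606 and 3348 with IFNγ, which also overlap (0.38, SE 0.17, adjusted p = 0.29). With the replicate number as a block in the fit, Il6st, Il11ra1 and Osmr were called as well, where 22.3% of all genes were called. The labels do not say whether these numbers pair the libraries. The difference between the effects at day 5 and day 2 was tested for all 9 genes in the 8 libraries, and limma called 0 of them, with 0 at an unadjusted p under 0.05 and 0.676% of 15837 genes called, 0.202% upward and 0.474% downward. DESeq2 and edgeR called 0 as well, with 1 (Osmr) and 0 genes at an unadjusted p under 0.05. The difference for Jak2 was −0.22 (SE 0.13, adjusted p = 0.636).

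At day 7, after IFNγ had been withdrawn, X-GFP–negative cells had higher Lifr, Il6st and Il11ra1 and lower Osmr, Il6ra, Jak1, Jak2 and Tyk2 than their controls, with 61.9% of 15531 genes called, 31.1% higher and 30.8% lower. Lifr rose from 1684 and 2012 to 4750 and 5105 normalized counts (log2 difference 1.42, SE 0.09, adjusted p = 4.1e-06), and Il6st from 2172 and 2172 to 3256 and 3271 (0.59, SE 0.06, adjusted p = 6.27e-05). Osmr fell from 171 and 161 to 63.4 and 81.2 (−1.20, SE 0.18, adjusted p = 0.000479), and Il6ra from 206 and 212 to 96.6 and 103 (−1.06, SE 0.14, adjusted p = 0.000271). The treated and control libraries were apart in all 9 genes, as in 79.1% of all genes.

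The kinases were lower by a smaller amount in the same X-GFP–negative cells. Jak1 fell from 3543 and 3263 to 2387 and 2309 (−0.53, SE 0.07, adjusted p = 0.000191), Jak2 from 2813 and 2226 to 1803 and 1410 (−0.65, SE 0.13, adjusted p = 0.00273), and Tyk2 from 1377 and 1372 to 1142 and 1104 (−0.29, SE 0.07, adjusted p = 0.0078). Rescaling each library to the same total moved the median of all genes from 0.02 to 0.17, and Tyk2 was then −0.14 and not called (adjusted p = 0.142), while the other 7 called genes kept their direction and call. Il11ra1 was 1.41-fold higher (0.48, SE 0.16, adjusted p = 0.0267), a call lost without control replicate 2 (adjusted p = 0.137) or IFNγ replicate 1 (0.175, with a difference of 0.29).

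In X-GFP–medium cells 2 genes were higher and 4 lower with IFNγ, with 62.9% of 15595 genes called, 33.3% higher and 29.6% lower. Libraries were apart in 7 of the 9 genes and in 79.2% of all genes. Lifr was 2576 and 2702 without and 6280 and 6381 with IFNγ (2.40-fold, log2 difference 1.26, SE 0.06, adjusted p = 4.24e-07), and Il6st was 2454 and 2524 against 3902 and 3861 (0.64, SE 0.06, adjusted p = 1.28e-05). Osmr was 188 and 227 in control cells and 31.4 and 57.5 with IFNγ, 4.67-fold lower (−2.25, SE 0.27, adjusted p = 6.92e-05). Il6ra was 1.85-fold lower (−0.89, SE 0.16, adjusted p = 0.000956). Jak1 went from 2831 and 2876 to 1907 and 2020 (−0.54, SE 0.06, adjusted p = 6.33e-05) and Jak2 from 1729 and 1615 to 1136 and 986 (−0.66, SE 0.08, adjusted p = 0.000114). Tyk2, at 1348 and 1289 against 1274 and 1111, was not called, and Lif and Il11ra1 overlapped between the groups. No call was lost when any 1 library was left out.

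In X-GFP–high cells 1 gene was higher and 3 were lower with IFNγ, with 38.5% of 15598 genes called, 18.1% higher and 20.4% lower. Libraries were apart in 7 of the 9 genes and in 67.6% of all genes. Lifr was 3849 and 3955 without and 5342 and 5065 with IFNγ (1.33-fold, log2 difference 0.41, SE 0.07, adjusted p = 0.000753). Osmr was 69.1 and 69.4 in control cells and 11.4 and 18.5 with IFNγ, 4.63-fold lower (−2.17, SE 0.31, adjusted p = 0.000307). Jak2 was 1025 and 885 against 683 and 541 (−0.65, SE 0.12, adjusted p = 0.0019), and Jak1 was 2335 and 2145 against 1798 and 1759 (−0.33, SE 0.08, adjusted p = 0.00619). The Jak1 call was lost without X-GFP–high control replicate 1 (adjusted p = 0.131). Il6st had 3272 and 3464 without and 3719 and 3479 with IFNγ, and was not called. Il6ra overlapped between the groups, as did Il11ra1.

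Single marker genes of other cells and the ESC markers also differed at day 7. The 7 fibroblast markers summed to 2120 to 5597 in the 6 control and 610 to 1013 in the 6 IFNγ-treated day 7 libraries, mostly through Dcn, at a mean of 4746 in X-GFP–medium control and 204 in IFNγ-treated cells. In that fraction 4 of the 6 tested were lower, Dcn, Col1a1 (−0.93), Col1a2 (−0.64) and Thy1 (−1.31), and 2 were higher, Col3a1 (1.03) and Pdgfrb (0.92). In X-GFP–negative cells 1 was lower (Dcn) and 1 higher (Pdgfrb), and in X-GFP–high cells 1 was lower (Dcn) and 1 higher (Thy1). The 5 macrophage markers summed to 1132 to 2961 in control and 521 to 1216 in IFNγ-treated libraries, almost all of it Cd68, at a mean of 1939 and 1092 in X-GFP–medium cells, with 2 or 3 of the 5 at the floor in each population. Y-linked genes summed to at most 12.6. Of the 5 ESC markers, all 5 were higher with IFNγ in X-GFP–negative and in X-GFP–medium cells, and 4 in the X-GFP–high fraction, where Dppa5a was not called. Their sums in X-GFP–medium cells were 75524 to 81506 against 45186 to 46557. The part of each in the differences of the 9 genes was not tested.

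Whether the effect of IFNγ differed between fractions was tested as an interaction in 8 libraries. Between X-GFP–negative and X-GFP–medium cells 1 of 9 genes differed, downward, with 15.7% of 15627 genes called, 7.31% upward and 8.36% downward. The decrease of Osmr was larger in X-GFP–medium cells, by −1.06 on the log2 scale (SE 0.36, adjusted p = 0.0991), a call lost without 6 of the 8 libraries in turn, with adjusted p up to 0.301 and a difference of −0.63 without X-GFP–medium IFNγ replicate 1. It was also lost with a pseudocount of 0.1 (adjusted p = 0.102), no filter (0.198) and all 24 libraries in 1 fit (0.283). The 6 libraries were both control libraries of either fraction, X-GFP–negative IFNγ replicate 2 and X-GFP–medium IFNγ replicate 1. Rescaling moved the median of all genes from 0.00 to −0.16, and Osmr was called under it too.

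From the medium to the high X-GFP fraction, 3 of 9 genes differed, 1 upward and 2 downward, with 12.8% of 15623 genes called, 4.71% upward and 8.06% downward. The increase of Lifr was smaller in X-GFP–high cells, by −0.85 (SE 0.08, adjusted p = 0.00271), and so was that of Il6st, by −0.55 (SE 0.08, adjusted p = 0.00696), though the latter was not called with all 24 libraries in 1 fit (adjusted p = 0.179). The effect on Il6ra was less negative by 0.75 (SE 0.24, adjusted p = 0.0846), a call lost without X-GFP–medium control replicate 1 (0.217) or 2 (0.235), X-GFP–medium IFNγ replicate 1 (0.208), X-GFP–high control replicate 1 (0.118) or 2 (0.268), or X-GFP–high IFNγ replicate 2 (0.199), with no filter on low values (0.159) and by DESeq2 (0.163). For Jak2 the difference between these fractions was 0.01 with an SE of 0.17, and for Osmr it was 0.08 with an SE of 0.43.

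**Figure D4:**
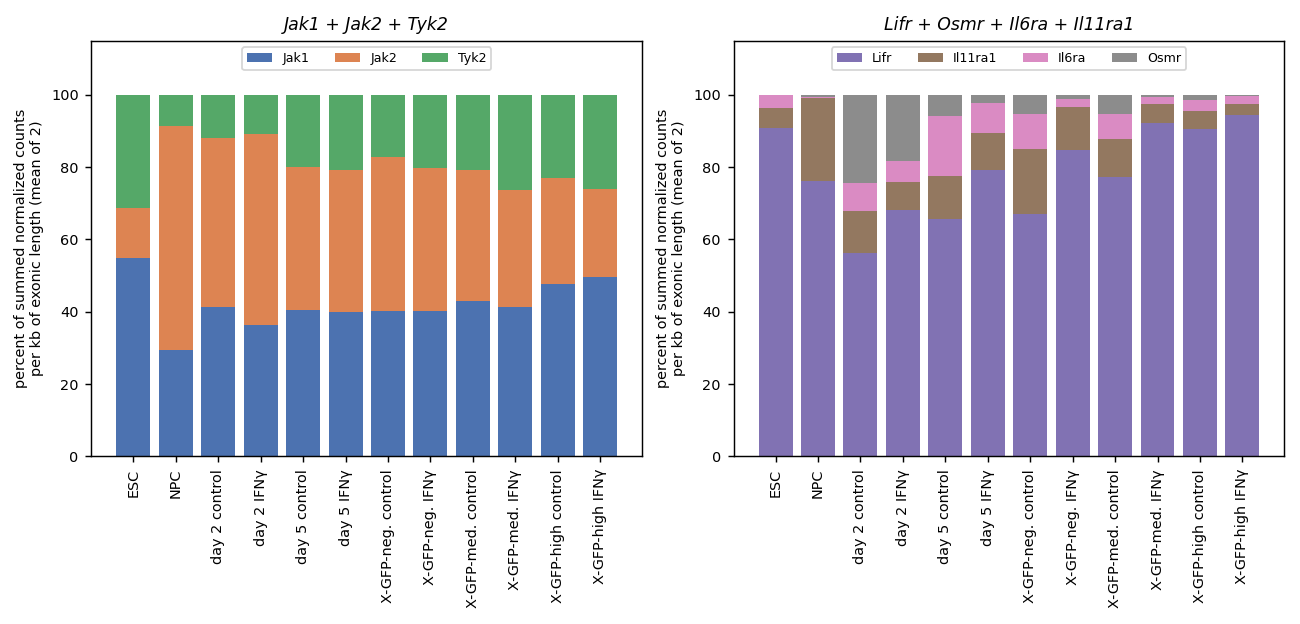
Shares of Jak1, Jak2 and Tyk2 (left) and of Lifr, Il11ra1, Il6ra and Osmr (right) in their summed normalized counts per kb of exonic length, as the mean of 2 libraries in each of 12 populations. Jak2 falls from 62.0% of the 3 kinases in NPCs to 13.7% in ESCs, and Osmr reaches 24.3% of the 4 receptors in control cells at day 2.

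To compare levels between genes, normalized counts were divided by the exonic length in kb. On this scale Jak2 made up 62.0 ± 1.34% (SD, n = 2) of the 3 kinases in NPCs, 46.8 ± 3.19% in control cells at day 2, 39.6 ± 1.15% at day 5, 29.2 ± 0.818% in X-GFP–high control cells and 13.7 ± 0.218% in ESCs. Jak1 went the other way, from 27.7% and 31.1% in NPCs to 55.8% and 54.2% in ESCs, and Tyk2 from 8.65 ± 1.05% to 31.4 ± 1.38%. At day 2 IFNγ-treated cells had a Jak2 share of 52.8 ± 1.03%, above both control libraries, at 44.6% and 49.1%. In X-GFP–high cells with IFNγ it was 26.0% and 22.7%, below both control libraries, at 29.8% and 28.6%. The Jak2 share was also lower in X-GFP–medium cells, at 33.4% and 30.8% against 36.9% and 35.4%. It overlapped between the arms at day 5, at 38.7% and 39.8% against 38.8% and 40.4%. In X-GFP–negative cells it overlapped too, at 41.9% and 36.9% against 44.7% and 40.5%.

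Among the 4 receptor genes other than Il6st, Lifr had the largest share per kb in every population. It was 56.4 ± 0.946% in control cells at day 2, 76.3 ± 0.271% in NPCs, 90.8 ± 0.488% in ESCs and 94.4 ± 0.195% in IFNγ-treated X-GFP–high cells. Il11ra1 was second in NPCs, at 22.9 ± 0.424%, Osmr at day 2, at 24.3 ± 1.86% in control cells, and Il6ra in control cells at day 5, at 16.5 ± 1.64%. With IFNγ the Lifr share in X-GFP–medium cells was 92.3 ± 0.502%, against 77.2 ± 1.22% in control cells. Il6st was above Lifr per kb in control cells at day 2, at 390 against 103 normalized counts per kb, and below it in IFNγ-treated X-GFP–medium cells, at 350 against 587.

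Other genes of the pathway were taken as lists, to be read against the 8.49% of all genes called at day 2, 5.03% higher and 3.45% lower. At day 2 of IFNγ, Stat3, the effector of LIF, went from a mean of 4404 to 6777 normalized counts (log2 difference 0.62, SE 0.05, adjusted p = 0.00101), and Stat5b was higher by 0.44 (adjusted p = 0.0268), against a median of 0.01 over all genes. Of 10 negative regulators, 2 were higher and none lower: Socs1, which binds and inhibits JAKs, by 2.78 (SE 0.13, adjusted p = 8.01e-05) and Socs3, which acts on gp130 complexes, by 0.67 (SE 0.10, adjusted p = 0.0167), with a list median of 0.16. Of 5 other JAK and interferon receptor genes, Jak3 (0.38, adjusted p = 0.057) and Ifnar2 (0.44, adjusted p = 0.0868) were higher and none lower, with a list median of 0.00. Of 7 LIF-STAT3 target genes 6 were tested, and Pim1 (0.76, adjusted p = 0.0147) and Bcl3 (0.96, adjusted p = 0.00731) were higher and none lower, with a list median of 0.17.

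At day 5, 2 of the 10 negative regulators were called, both higher: Socs1 (2.03, SE 0.22, adjusted p = 0.00929) and Socs3 (0.53, SE 0.07, adjusted p = 0.0208). The list median was 0.04 against −0.00 over all genes, of which 1.65% were called higher. None of the 7 LIF-STAT3 targets was called.

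In X-GFP–medium cells at day 7, where 62.9% of all genes were called, 6 of 7 LIF-STAT3 targets were higher and 1 lower, with a list median of 0.51 against 0.04 over all genes. Tfcp2l1, a transcription factor of naive pluripotency, went from a mean of 11607 to 21475 normalized counts (0.89, SE 0.06, adjusted p = 2.87e-06) and Klf5 from 612 to 1198 (0.96, SE 0.09, adjusted p = 1.34e-05). Bcl3 (0.51), Pim1, Pim3 and Gbx2 were higher too, and Junb was lower (−0.93, SE 0.07, adjusted p = 2.84e-06). Stat3 was higher (0.25, adjusted p = 0.00402), and Stat5a (−1.28, SE 0.12, adjusted p = 1.61e-05) and Stat5b (−0.51) lower. Ifngr1, the ligand-binding chain of the IFNγ receptor, was lower, from a mean of 533 to 260 (−1.04, SE 0.11, adjusted p = 3.25e-05), and so was Ifnar1, whereas Ifngr2 (0.65, SE 0.17, adjusted p = 0.0088) and Jak3 (0.85, SE 0.09, adjusted p = 2.74e-05) were higher. Of 10 negative regulators 5 were higher, among them Socs2 (0.65) and Socs1 (0.67), and 4 were lower, among them Cish (−1.66, SE 0.19, adjusted p = 5.95e-05).

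In X-GFP–negative cells, 4 LIF-STAT3 targets were higher and 2 lower, with a list median of 0.29, and 3 of 10 negative regulators were higher and 4 lower, with a median of 0.04, where 61.9% of all genes were called and their median was 0.02. In X-GFP–high cells 3 targets were higher and 1 lower (median 0.26), and 1 negative regulator was higher and 2 lower (−0.02), where 38.5% of all genes were called and their median was 0.03. In X-GFP–negative and X-GFP–high cells the shares of negative regulators called were near those of all genes. Other gp130 ligands were at low levels: none of 9 reached a mean of 100 normalized counts in any population, and none was called with IFNγ at day 2 or 5. Osm, which encodes oncostatin M and lies 16530 bp from Lif, was named after its values were seen. It was at 0 in both NPC and both control day 2 libraries and at 93.4 and 91.4 in ESCs. In X-GFP–medium cells it was higher with IFNγ, at 73.9 and 50.2 against 31.6 and 36.1 (0.83, SE 0.27, adjusted p = 0.0227).

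The likeness of patterns was described by the Pearson correlation of log2 population means over the 12 populations, among 12021 genes with a mean of at least 100. The populations share a cell line and a course, so that high values are common, and no test was made. Jak2 was most like Smarca2 (0.987) and Cald1 (0.987), Tyk2 most like Diaph1 (0.986) and Zbtb38 (0.979), and Jak1 most like Esyt2 (0.960) and Mcu (0.957). Lifr was most like Cnpy3 (0.961) and Aldh1l1 (0.948), Osmr most like Ccl7 (0.976) and Ermap (0.971), and Il6ra most like Nos1 (0.988) and Arpc3 (0.981). Il11ra1 was most like Dhx34 (0.952) and Slc30a9 (0.948), Lif most like Slc25a37 (0.905) and Tlr2 (0.902), and Il6st most like Prune2 (0.894) and Tspan4 (0.885). Among the 9 genes themselves, Lif and Il6ra (0.883) and Osmr and Jak2 (0.802) were closest, Lifr and Jak2 had the value −0.442, and Lifr and Il6st, the chains of the LIF receptor, had 0.197.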

How the data were processed

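Normalized counts were the signal values that the authors deposited for 24 libraries. Per the labels and methods, rRNA-depleted stranded RNA was sequenced, aligned with STAR and WASP to mm10 masked at CAST/EiJ and 129S1/SvImJ variants, counted with HTSeq 0.6.1 and scaled with DESeq2. Whether HTSeq used strand is not given in the sources used here. The deposited values of a library were multiples of 1 step (100% within 0.01), and dividing by this step recovered the reads used for DESeq2 and edgeR. Depth was 24746109 to 37056508 reads on genes, and 3 reads per library were taken as the floor, for counting error only. Of the identifiers, 95.2% were found in GENCODE vM21. A table of the X mus share of reads per population was not used.

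Tests used limma 3.58.1 (R 4.3.3; lmFit, then eBayes with trend), after log2(normalized count + 1), with 4 libraries per comparison (8 for interactions), for genes with a mean above 10, two-sided, with the Benjamini-Hochberg adjustment over all genes and a threshold of 0.1. With 2 against 2 libraries an exact permutation test cannot go below 0.333. Fold changes are ratios of mean normalized counts, and log2 differences understate those of low genes. Alternatives tried were no filter, a pseudocount of 0.1, rescaling to equal totals, 1 fit of all 24 libraries, a replicate block, DESeq2 1.42.0, edgeR 4.0.16 and leaving out each library. The procedure was run on simulated data for the day 2 comparison and the interaction of X-GFP–medium with X-GFP–negative cells only. The simulated libraries were drawn independently, so that shared deviations of same-numbered libraries were not covered. The outcome is not given here and is not used as support. Replicates differed by more than sampling noise in every population. Members, lists and tests were chosen with earlier results of these data known. Of the other pathway genes, those called at day 2 or in X-GFP–medium cells with a group mean of at least 100 were named, at most 4 per list by size of difference. Further genes were named after their values were seen, and 1 gene of the lists is not reported here.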

Additional observations from a re-analysis of the deposited data

Results flagged for a closer look

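The effect of IFNγ at day 7 differed between fractions, by an interaction test, in 4 cases. The log2 effect on Lifr differed from X-GFP–medium cells to the X-GFP–high fraction by −0.85 (adjusted p = 0.00271, limma), and that on Il6st by −0.55 (adjusted p = 0.00696). That on Il6ra was higher by 0.75 (adjusted p = 0.0846). The effect on Osmr was lower in X-GFP–medium than in X-GFP–negative cells, by −1.06 (adjusted p = 0.0991). The first 2 were called whichever of the 8 libraries was left out, and the other two were each called in 2 of these 8 cases. With all 24 libraries in 1 fit Il6st (adjusted p = 0.179) and Osmr (0.283) were not called, nor was Il6ra with no filter (0.159) or by DESeq2 (0.163), nor Osmr with no filter (0.198) or a pseudocount of 0.1 (0.102). The cause was not tested.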

How the results depend on the processing

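Of the differences of single genes, 67 were called and none of these changed direction under any alternative. Another 13 were called only under some alternative that leaves out no library, and 2 of them changed sign when 1 library was left out: Lifr between day 7 X-GFP–negative and day 5 control cells (0.21, range −0.09 to 0.51) and Il6st between ESCs and NPCs (0.28, range −0.005 to 0.56). The 45 others were never called, and 20 of them changed sign somewhere. Most counts of called genes stayed within 1.5 times. The exceptions were these. With IFNγ at day 2 (2 genes), 1 fit of all 24 libraries called 1 gene. At day 5 (1 gene), no filter on low values gave 0, and the count also changed when 1 library was left out. For control cells at day 2 against NPCs (8 genes) and for day 5 against day 2 control cells (8), the count was lower without some single libraries. The share of all genes called was lower in these fits too. For ESCs against NPCs (5) all 24 libraries gave 8, and the count also changed when 1 library was left out. For the interaction of the medium with the negative fraction (1), a pseudocount of 0.1, no filter and all 24 libraries each gave 0, as did leaving out some single libraries. With the replicate number as a block, 4 genes were called at day 2, 4 at day 5, 8 for ESCs against NPCs and 2 for that interaction. Those at day 2 were Lifr, Jak2, Il6st and Osmr, and those at day 5 were Lifr, Il6st, Il11ra1 and Osmr. Of all genes, 31.8%, 22.3%, 85.3% and 26.8% were called with the block, against 8.49%, 2.18%, 85.6% and 15.7% without it. The labels do not say whether the numbers pair the libraries. Same-numbered libraries deviated together with correlations of 0.05 to 0.31 in the comparisons of IFNγ with control. The correlation was 0.313 at day 2 and 0.255 at day 5, where the block raised the share of all genes called. Genes not called at days 2 and 5 in the reported fit may thus still differ. For control cells at day 2 against NPCs the correlation was −0.12, and a block with crossed numbers, added after seeing the data, called 8 genes, as did the block as numbered. The crossed block called 71.8% of all genes and the block as numbered 65%. The cause of these changes was not tested. With 2 libraries per group, small differences such as those of Tyk2 are at the limit of detection.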
